A study of Rattus norvegicus with 6 samples.

Results

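Pools of cultured rat brainstem cells differed in the level of interferon-induced transcripts, and the difference crossed the strains. The 6 pools of the series were ordered by a score, the log2 of the mean intensity over the spots for Mx1, Rsad2, Ifit3 and Usp18, and were divided into the 3 with the highest score (SHR 2, WKY 2 and WKY 3, the upper pools) and the 3 with the lowest (SHR 1, SHR 3 and WKY 1, the lower pools). The division was thus chosen by measured values of the same arrays and by no label, so every difference between upper and lower pools is given as a description with no test. With the 4 choosing genes left out, 11705 of 11709 genes with a complete spot were described.

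The study hybridised RNA of cultured brainstem cells from spontaneously hypertensive rats (SHR, an inbred strain with genetic high blood pressure) and from normotensive Wistar Kyoto rats (WKY) to single-colour CodeLink arrays. Each strain had 3 arrays, and each array received RNA pooled over the cells of 3 dishes. The design text calls the arrays of a strain independent biological replicates, but neither it nor the labels say whether the pools differed in litter or culture day, so a p-value measures the spread between these pools. No treatment, age, sex or added interferon is named for either strain.

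Interferons are secreted when cells sense foreign or displaced nucleic acid. Type I interferons signal through receptor-bound kinases to transcription factors that act at the interferon-stimulated response element (ISRE) in promoters, whereas interferon-gamma acts mainly at the gamma-activated site (GAS). In the brain, microglia and astrocytes both produce and answer type I interferon.

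Promoter sequence is shown first. The choosing rule did not use it, but the genes past the 2-fold rule given below were selected by the division. The windows below are from RefSeq promoters (build GRCr8, 250 bases before to 50 after the gene start), written 5′ to 3′ along the gene, with capitals marking the ISRE core GAAANNGAAA or its reverse complement TTTCNNTTTC. They belong to choosing genes (Rsad2 and Ifit3) and to the genes among those described below as at least 2-fold apart that held a core. Of the other choosing genes, Mx1 had a promoter entry without a core and Usp18 had no entry. Rsad2 lies at chr6:48788233-48788292 (minus strand), Ifit3 at chr1:241527257-241527316 (plus), Irf7 at chr1:205800058-205800117 (minus), Oas1b at chr12:41395871-41395936 (minus), Oas1i at chr12:41285165-41285225 (plus) and Ifi44 at chr2:243303841-243303891 (minus). All 6 windows lie upstream of the gene start.
Rsad2: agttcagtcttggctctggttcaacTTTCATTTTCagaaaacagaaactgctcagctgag
Ifit3: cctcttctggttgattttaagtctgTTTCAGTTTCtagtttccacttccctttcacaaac
Irf7: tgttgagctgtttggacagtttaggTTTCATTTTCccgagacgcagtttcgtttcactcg
Oas1b: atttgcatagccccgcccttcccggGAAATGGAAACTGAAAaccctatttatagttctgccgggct
Oas1i: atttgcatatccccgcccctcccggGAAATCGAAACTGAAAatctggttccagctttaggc
Ifi44: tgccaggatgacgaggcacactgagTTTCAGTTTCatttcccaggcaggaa
Oas1b and Oas1i, 2′-5′ oligoadenylate synthetase genes of the same chromosome, each carried 2 overlapping cores in a row.

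The ISRE core was present, on either strand, in 4 of the 7 interferon genes past the 2-fold rule given below that had a promoter entry and in 20 of the 48 interferon genes not past it. It was present in 268 of the 9659 described genes with an entry (2.77%) and in 3.92% of all 33469 promoters in the table. The GAS core TTCNNNGAA, a palindrome, was present in 1 of the 7 and in 12 of the 48, against 6.95% of the described genes and 8.87% of all promoters. Outside the interferon lists, 5 of 63 genes past the rule in the higher direction and 2 of 141 in the lower direction held an ISRE core. A match describes letters in these windows and does not identify a bound site. The lists were made of interferon response genes, so nothing is read from these counts about the pools.

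The score was 13.84 in WKY 3, 13.71 in WKY 2 and 13.17 in SHR 2, and 12.10 in SHR 1, 11.96 in SHR 3 and 11.001 in WKY 1 (log2 intensity). The members on either side of the threshold were SHR 2 and SHR 1, which differed by 1.08, or 2.11-fold. This step was close in size to the 0.96 between SHR 3 and WKY 1 inside the lower pools, and the full range was 2.84, or 7.16-fold. One dim Mx1 spot, at an intensity of -813 in WKY 3, entered that pool's mean; without Mx1 the scores of WKY 3 and WKY 2 were 13.77 and 13.67. The brightest spot of Mx1, a dynamin-like GTPase that blocks viral ribonucleoproteins, read log2 14.22, 14.78 and 15.01 in SHR 2, WKY 2 and WKY 3, and 13.24, 12.96 and 12.29 in SHR 1, SHR 3 and WKY 1. Rsad2, which encodes the antiviral enzyme viperin, read 13.67, 14.13 and 13.64 in the upper pools and 12.08, 12.16 and 11.02 in the lower pools in the same order. For Ifit3, a protein of the tetratricopeptide family induced by interferon, the values were 12.81, 13.35 and 13.86 against 11.64, 11.76 and 9.96. Usp18, the protease that removes ISG15 from proteins, was at 13.48, 14.02 and 14.14 against 12.52, 12.36 and 11.32. Upper and lower pools did not overlap for any of the 4 genes, as the choice of pools would give. The same 3 pools were uppermost when any 1 of the 4 genes was left out, and with the intensities of the per-sample tables. Those scores reuse the choosing spots, so their agreement was largely set by the choice of pools. The upper pools were also the same with 67 other interferon response genes of these arrays in place of the 4. By the mean of these genes, each centred over the arrays, SHR 2 was at 0.15 and SHR 1 at -0.075. That step was smaller than the one from SHR 3 (-0.23) to WKY 1 (-0.62). The genes were listed with earlier results of these data known, so this order is no separate support for the division.

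**Figure D1:**
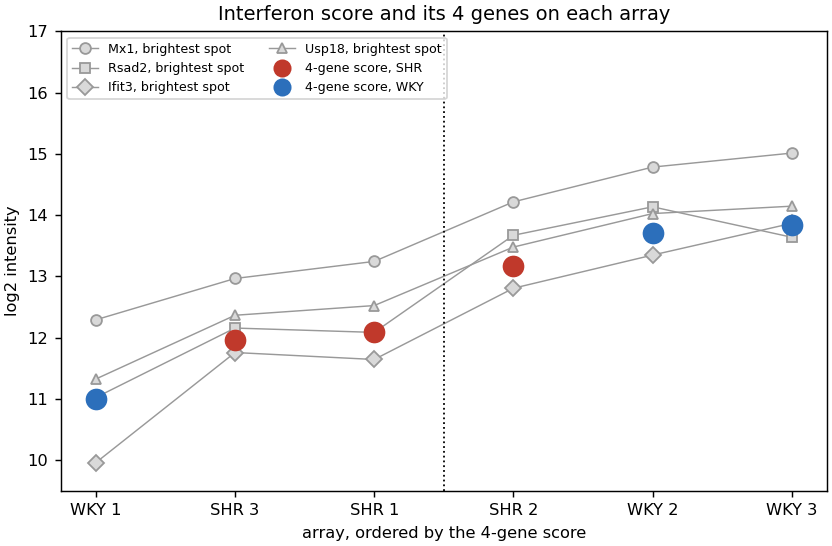
Log2 intensity of the 4 choosing genes (grey, brightest spot of each) and their score (coloured by strain) on the 6 arrays, ordered by score; the dotted line divides lower from upper pools. The score runs from 11.001 in WKY 1 to 13.84 in WKY 3, with SHR and WKY pools on both sides of the line.

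Replicate number and score coincided in part. Both pools numbered 1 were lower, both numbered 2 were upper, and those numbered 3 fell on different sides. Whether a number marks a shared culture or hybridisation is not stated in the labels, so these cannot be told apart. The WKY pools spanned the whole range of the score, and the SHR pools lay between 11.96 and 13.17.

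For each gene, 2 within-strain differences were taken on the log2 scale: SHR 2 minus the mean of SHR 1 and SHR 3, and the mean of WKY 2 and WKY 3 minus WKY 1. Their mean, which is the coefficient of the division in a fit with strain as covariate, is called the mean difference. A gene was ordered when each upper pool stood above (or below) each lower pool of its own strain, and it was past the 2-fold rule when it was ordered and its mean difference was at least 1. Of all 11705 genes, 95 (0.812%) were past the rule in the higher direction and 186 (1.59%) in the lower, and 1960 (16.7%) and 2362 (20.2%) were ordered in those directions. Over single spots with or without a gene name, 332 of 32614 (1.02%) were past the rule higher and 418 (1.28%) lower. Since the arrays were divided on their own values, nothing is read from a list's share against these percentages.

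Of 106 interferon response genes in 5 lists (nucleic acid sensors, transcription factors, antiviral effectors, ISG15 conjugation with ADP-ribosylation, and GTPases), 67 were measured. Of these, 14 were past the 2-fold rule higher in the upper pools and 0 lower, while 40 were ordered higher and 4 lower. The median mean difference over the 67 was 0.48, with 0.23 within SHR and 0.78 within WKY, against a median of -0.0096 over all genes. The median SD within a strain was 0.396 for the lists and 0.194 for all genes. The 14 genes were 14.7% of the 95 higher genes and 20.9% of the lists. By size of the mean difference, 4 of the 10 leading genes, 12 of the 50 and the same 12 of the 100 were of the lists, which held 67 of all 11705 genes.

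**Figure D2:**
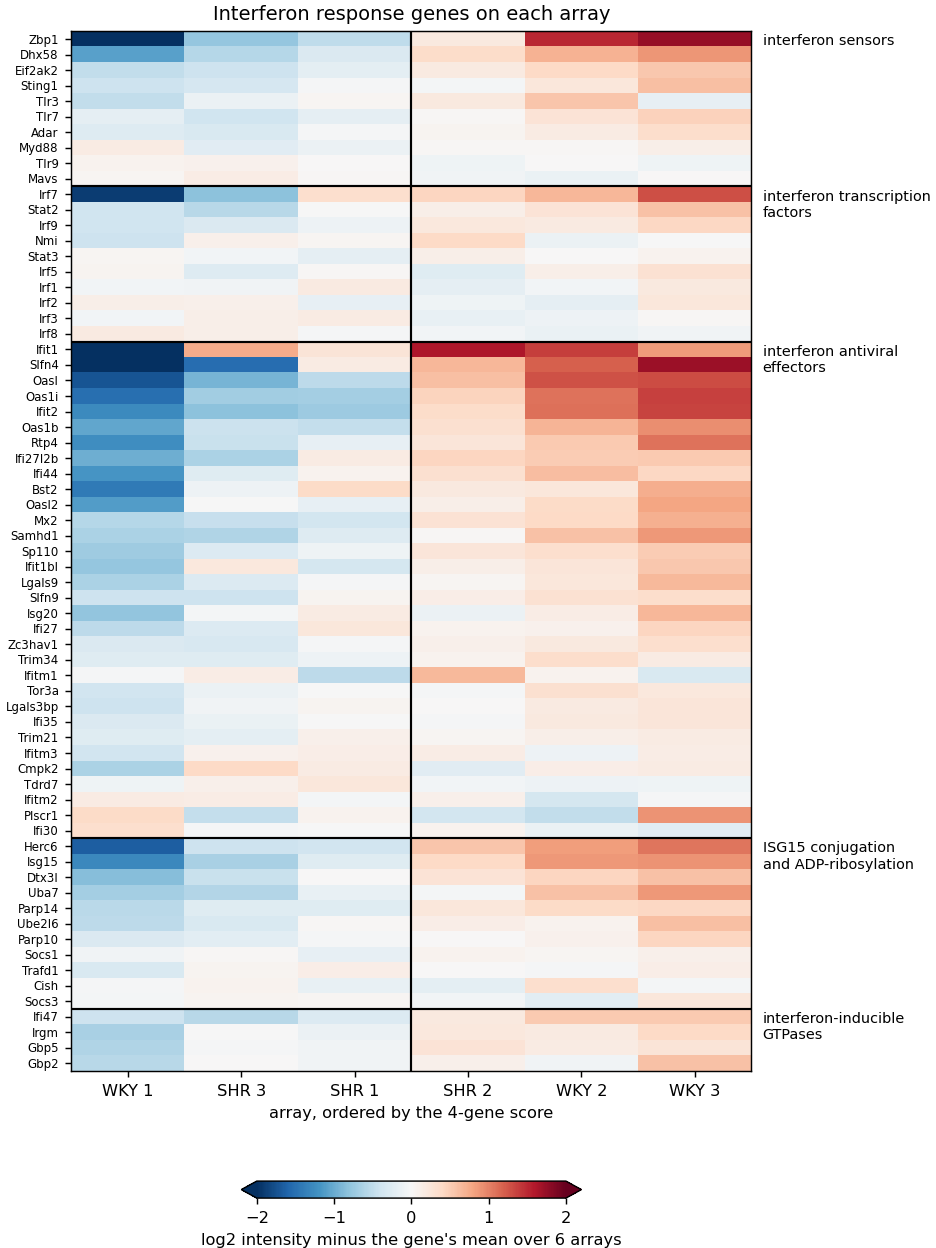
Log2 intensity of each measured interferon response gene minus its mean over the 6 arrays (colour, limited to -2 and 2), grouped by role; columns are the arrays in score order and the black line divides lower from upper pools. WKY 1 has the lowest value in 44 of the 67 genes and WKY 3 the highest in 45, against 14.1% and 20.5% of all genes described.

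Among sensors, Zbp1, which binds Z-form nucleic acid and triggers cell death, had the largest difference. Its values were log2 9.55, 10.86 and 11.09 in SHR 2, WKY 2 and WKY 3, and 8.84, 8.57 and 7.18 in SHR 1, SHR 3 and WKY 1. The pools did not overlap, and the mean difference was 2.32 (0.85 within SHR and 3.79 within WKY, SD within strain 1.59). Dhx58, the RIG-I-like RNA sensor LGP2, was at 12.66, 12.99 and 13.17 against 12.002, 11.72 and 11.20 in the same order. Its mean difference was 1.34. Eif2ak2, the double-stranded RNA kinase PKR, and Adar, the RNA-editing adenosine deaminase, were ordered with smaller mean differences of 0.72 and 0.36. The adaptors Mavs (-0.13) and Myd88 (0.05) and the endosomal receptor Tlr9 (-0.12) differed by far less than 2-fold. Mavs and Tlr9 were ordered in the opposite direction, and Myd88 was not ordered.

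Among transcription factors, Irf7, the factor that amplifies type I interferon transcription, was the single gene of 10 past the rule. It read log2 13.49, 13.72 and 14.36 in the upper pools and 13.40, 12.24 and 11.16 in SHR 1, SHR 3 and WKY 1. SHR 1 thus stood close to SHR 2 for this gene, and the mean difference of 1.78 came mostly from WKY (2.88 against 0.67 in SHR). Stat2 and Irf9, which act at the ISRE, had mean differences of 0.62 and 0.55 and were ordered. Irf1, Irf2, Irf3, Irf5 and Stat3 lay between -0.13 and 0.11 and were not ordered, and Irf8 was ordered in the opposite direction (-0.19).

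Antiviral effectors were the largest group, with 9 of 32 past the 2-fold rule. Ifit1, which binds viral RNA lacking cap methylation, read 12.45, 12.21 and 11.67 in the upper pools and 11.09, 11.57 and 5.98 in SHR 1, SHR 3 and WKY 1. Its mean difference of 3.54 was the largest of all genes described, and WKY 1 decided its size: without WKY 1 the value was 1.12. A second, dimmer spot for Ifit1 gave 2.22. For Ifit2, of the same family, the values were 12.37, 13.12 and 13.37 against 11.29, 11.18 and 10.73, with a mean difference of 1.82.

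Oligoadenylate synthetases make the second messenger that activates RNase L. Oas1i read 12.90, 13.54 and 13.82 in the upper pools and 11.78, 11.76 and 10.94 in the lower pools, a mean difference of 1.94. Oasl, a family member that acts with RNA sensors, read 13.09, 13.76 and 13.80 against 11.97, 11.56 and 10.76, a mean difference of 2.17. Oas1b was at 9.85, 10.22 and 10.47 against 9.07, 9.11 and 8.50, a mean difference of 1.30, with 0.56 at a second spot. These pools did not overlap for any of the 3 genes, and in all of them the WKY difference exceeded the SHR difference.

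Slfn4, a schlafen gene induced in myeloid cells, read 12.28, 12.82 and 13.33 against 11.79, 10.10 and 9.41 (mean difference 2.502, SD within strain 1.71). Rtp4, a receptor chaperone induced by interferon, was at 13.73, 14.00 and 14.58 against 13.32, 13.04 and 12.24 (1.30). Ifi44 and Ifi27l2b had mean differences of 1.04 and 1.07. The upper values of Ifi27l2b, 15.10 to 15.20, were near the highest value of the scale, 15.34.

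Several effectors were ordered without reaching 2-fold. Mx2, whose second spot gave 1.36, was at 0.91, Oasl2 at 0.95, Samhd1, a nucleotide hydrolase that restricts retroviruses, at 0.91 and Sp110 at 0.78. Bst2, the tether of budding virions, had a mean difference of 0.97 and was not ordered, since SHR 1 at 12.41 stood above SHR 2 at 12.22. The membrane proteins Ifitm1 (0.36), Ifitm2 (-0.16) and Ifitm3 (0.22) were far below 2-fold. Cmpk2, the nucleotide kinase gene beside Rsad2, was at 0.14, with -0.50 within SHR and 0.78 within WKY.

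In the ISG15 pathway, Isg15, the ubiquitin-like modifier, read 14.52, 14.98 and 15.01 in the upper pools and 13.87, 13.47 and 12.83 in the lower pools, a mean difference of 1.51. Herc6, the rodent ligase for ISG15, read 10.72, 11.005 and 11.25 against 9.79, 9.77 and 8.52, a mean difference of 1.77. The other enzymes of conjugation, Uba7 (0.87) and Ube2l6 (0.57), and the ADP-ribosylation genes Dtx3l (0.92), Parp14 (0.71) and Parp10 (0.33) were ordered below 2-fold. The feedback inhibitors Socs1 (0.14), Socs3 (-0.02) and Cish (0.00) stayed close to 0.

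All 4 measured GTPases of the guanylate-binding and immunity-related families, which are known for their induction by interferon-gamma, were ordered, and none reached 2-fold. Their mean differences were 0.46 for Gbp2, 0.57 for Gbp5, 0.61 for Irgm and 0.78 for Ifi47.

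The 12 measured ligands, receptors and kinases included 0 past the rule in either direction. Ifnb1, which encodes interferon-beta, read 8.05, 8.05 and 8.03 in SHR 2, WKY 2 and WKY 3, and 8.28, 7.91 and 7.52 in SHR 1, SHR 3 and WKY 1, so the pools overlapped. Of the 12, 3 were ordered higher: Jak2 (0.32), Tyk2 (0.11) and Ifnk (0.53, at a dim spot with a mean of 5.93). Another 3 were ordered lower: Ifnlr1 (-0.24), Il10rb (-0.20) and Pias1 (-0.06). A dimmer Jak2 spot was at 0.04 and was not ordered, and neither was Ifngr1 (-0.09). Jak1 was at -0.26 and was not ordered.

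The difference was larger within WKY than within SHR in 59 of the 67 interferon genes, and in all 14 past the rule, whereas it was larger within WKY in 49.4% of all genes. Each difference rests on 3 arrays, 1 of which stands alone on its side. Each of the 3 upper pools stood above each of the 3 lower pools in 36 of the 67, against 1254 of all genes (10.7%). Without WKY 1 the mean difference of a gene becomes its SHR difference, and without SHR 2 its WKY difference. The median over the lists was then 0.23 and 0.78. Of the 14 genes past the rule, 5 (Ifit1, Ifit2, Oas1i, Oasl and Slfn4) were still at 2-fold or more without WKY 1 and 9 were below it, while all 14 were at 2-fold or more without SHR 2. Of 59 other genes past the rule in the lists, the leading genes and the ciliary family, 11 were below 2-fold without WKY 1 and 16 without SHR 2.

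**Figure D3:**
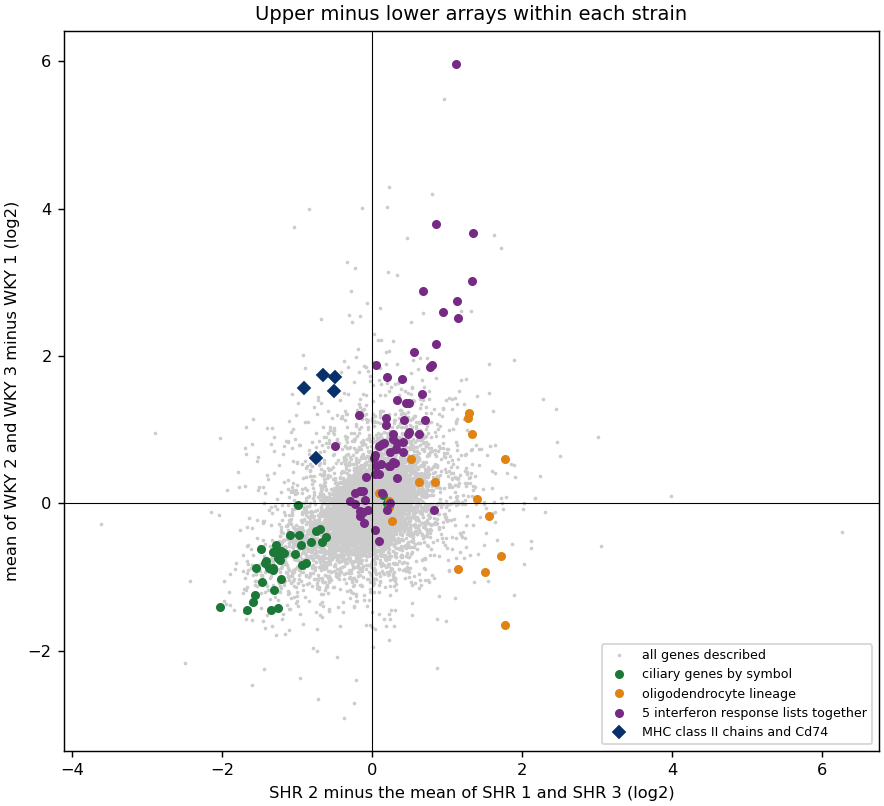
Difference between upper and lower pools within SHR (horizontal) and within WKY (vertical), log2, for each of 11705 genes (grey), with interferon response genes, oligodendrocyte genes, ciliary genes, and MHC class II chains with Cd74 in colour. Interferon genes past the 2-fold rule lie at 0.40 to 1.34 within SHR and 1.49 to 5.96 within WKY, and the 5 class II points lie at opposite signs in the strains.

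Antigen presentation followed the division only in part. Of 30 measured MHC and antigen processing genes, 1 was past the 2-fold rule: RT1-S3, a nonclassical class I gene, at 12.13, 12.60 and 13.03 in the upper pools and 11.78, 11.21 and 10.85 in the lower, a mean difference of 1.30 that was 0.64 without WKY 1. RT1 class I genes are near-identical copies, and their spots may not tell them apart. B2m, the class I light chain, was at 0.20, and the peptide transporter Tap1 was ordered at 0.34. The immunoproteasome subunit Psmb8 had 0.12 within SHR and 1.62 within WKY. Its values were 13.69, 13.62 and 13.65 in the upper pools and 13.73, 13.42 and 12.01 in SHR 1, SHR 3 and WKY 1.

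The class II chains RT1-Ba, RT1-Bb, RT1-Da and RT1-Db1 and the invariant chain Cd74 ran in opposite directions in the strains. All 5 were lower in SHR 2 than in the other SHR pools, by -0.91 to -0.49, and all 5 were higher in WKY 2 and WKY 3 than in WKY 1, by 0.61 to 1.74. Cd74 read 10.61, 9.93 and 10.24 in SHR 1, SHR 2 and SHR 3, and 9.34, 10.64 and 11.47 in WKY 1, WKY 2 and WKY 3. Ciita, the class II transactivator, read between 7.47 and 7.71 on all 6 arrays at its brightest spot, with a mean difference of 0.17. Its dimmer spot was past the 2-fold rule at 1.05, and both spots were below the median spot of 9.01.

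Of 41 measured cytokine and chemokine genes, 5 were past the rule higher and 1 lower, with a median mean difference of 0.33. Cxcl13, the chemokine that attracts B cells, read 11.23, 11.21 and 13.24 in SHR 2, WKY 2 and WKY 3, and 9.97, 9.24 and 8.59 in SHR 1, SHR 3 and WKY 1, a mean difference of 2.63. Cxcl10, a ligand of CXCR3 induced by interferon, read 12.59, 12.82 and 12.80 against 11.27, 11.41 and 11.13, a mean difference of 1.47, and its upper values lay close together. The other CXCR3 ligands were Cxcl11, ordered at 0.97, and Cxcl9 at 1.06, which was not ordered because SHR 1 (11.91) and SHR 2 (11.88) were level.

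Il1rn, the antagonist of the interleukin-1 receptor, was at 11.89, 12.02 and 13.38 against 10.91, 10.73 and 11.28 (1.24, with 1.03 at a second spot). Il1b, which encodes interleukin-1 beta, was at 10.69, 10.82 and 11.76 against 10.49, 9.57 and 9.62 (1.17, and 0.66 without WKY 1). Spp1, osteopontin, had a mean difference of 1.10, and of 0.66 without SHR 2. Ccl17, a ligand of CCR4, was lower in the upper pools. It read 9.46, 9.99 and 10.63 there and 11.76, 12.01 and 11.36 in the lower pools, a mean difference of -1.74, with -1.35 at a second spot. Tnf (0.55) was ordered below 2-fold and Il6 (0.24) was not ordered. Of 20 NF-kB pathway genes 0 were past the rule, and of 20 complement genes 1 was, Cfb, factor B of the alternative pathway, at 1.15 (0.52 within SHR and 1.77 within WKY, so below 2-fold without WKY 1).

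Markers of the cells in these cultures were set beside the interferon genes. Of 23 measured microglia and macrophage markers, 0 were past the rule in either direction, and the median mean difference was 0.042. The summed level of the list, as the mean of its genes each centred over the 6 arrays, was -0.089, 0.12 and 0.21 in SHR 2, WKY 2 and WKY 3, and -0.13, -0.19 and 0.080 in SHR 1, SHR 3 and WKY 1. Mean differences ran from -0.37 to 0.61 over the list, with 2 genes ordered higher and 3 lower. Aif1, Csf1r and C1qa read between 15.02 and 15.30 on all arrays, near the top of the scale. A dimmer Csf1r spot, at a mean of 9.06, had a mean difference of -0.56 and was ordered lower. Of 14 astrocyte markers 0 were past the rule, with Aqp4, Slc1a3 and Gja1 at 14.80 to 15.25. Dimmer spots gave -0.47 and -0.19 for Aqp4, both ordered lower, and 0.063 and -0.17 for Gja1, neither ordered.

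Lymphocyte, natural killer and dendritic cell markers (16 measured) and endothelial and pericyte markers (15) also had 0 past the rule. The lymphocyte list had summed levels of -0.17, 0.014 and 0.17 in the upper pools and -0.061, 0.034 and 0.017 in the lower. In bulk RNA, fewer cells of a type and less RNA per cell cannot be told apart. The part of cell composition in the interferon difference was not tested.

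**Figure D4:**
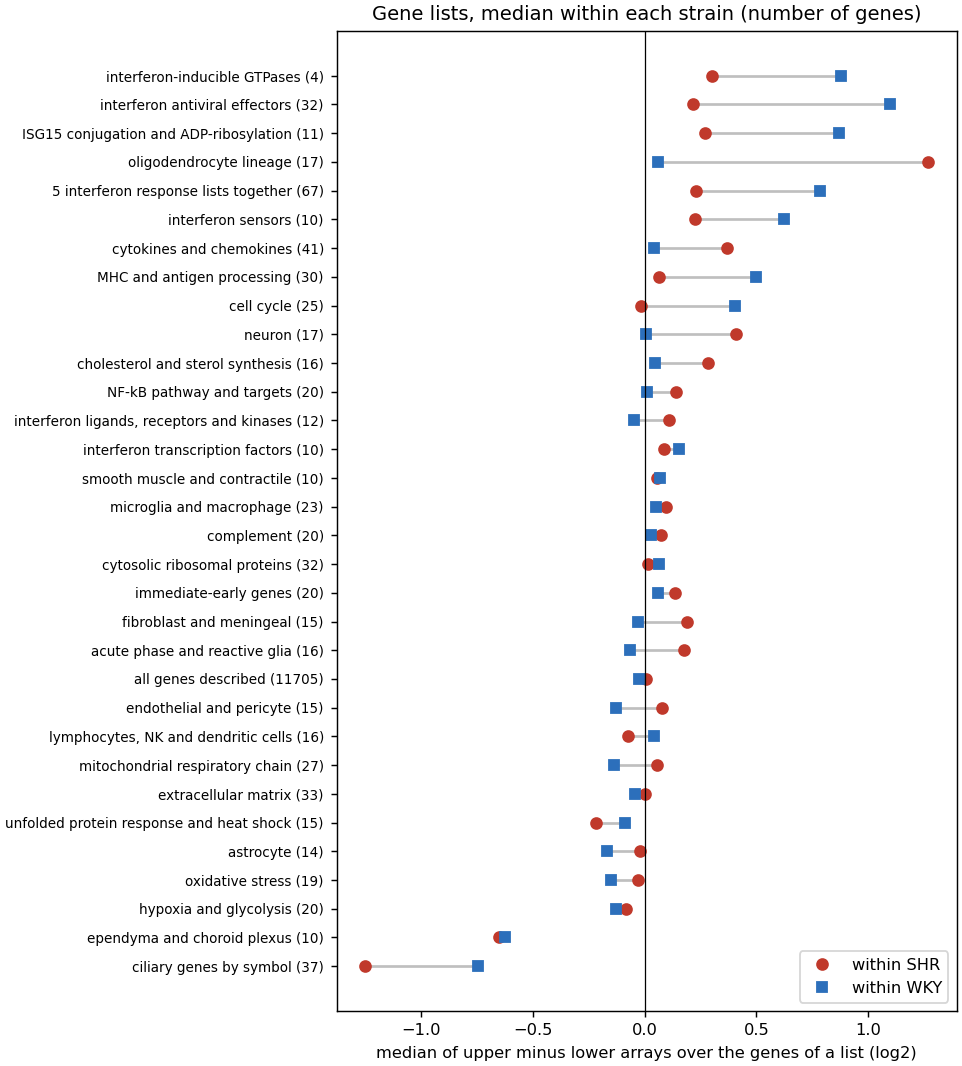
Median difference between upper and lower pools over the measured genes of each list, within SHR (red circles) and within WKY (blue squares), log2, with the number of genes in parentheses. The interferon lists have larger medians within WKY (0.78 for the 5 lists together) than within SHR (0.23), the oligodendrocyte list has 1.27 within SHR and 0.06 within WKY, and the ciliary genes lie at -1.25 and -0.75.

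Oligodendrocyte genes differed between the pools mainly within SHR. All 17 measured genes of the lineage were higher in SHR 2 than in the mean of SHR 1 and SHR 3, with a median of 1.27. In WKY, 10 of 17 were higher in WKY 2 and WKY 3 than in WKY 1, with a median of 0.06. The medians over all genes were 0.0043 within SHR and -0.028 within WKY, and these 2 counts were not made over all genes. Only 6 of the 17 were ordered higher in both strains, against 16.7% of all genes, and 0 were ordered lower. Past the rule were 4: Sox10, the lineage transcription factor, at 1.25, Enpp6, a choline phosphodiesterase of newly formed oligodendrocytes, at 1.21, Ugt8, the galactosylceramide synthase of myelin lipid, at 1.19, and Myrf, the myelin regulatory factor, at 1.14. Sox10 read 11.98, 12.59 and 12.22 in the upper pools and 10.89, 10.50 and 11.18 in the lower.

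Within WKY, genes of mature myelin were divided. The difference was 0.29 for Mag, 0.06 for Cldn11, -0.05 for Cnp and -0.17 for Mbp, which encode myelin proteins, and -0.71 for Mobp, -0.89 for Opalin and -0.93 for Mog. Mog, a myelin surface glycoprotein, read 11.28, 12.83 and 11.39 in SHR 1, SHR 2 and SHR 3, and 13.48, 12.77 and 12.32 in WKY 1, WKY 2 and WKY 3. Ermn, a cytoskeletal protein of myelinating cells, had 1.77 within SHR and -1.65 within WKY. WKY 1 was thus the highest pool for Mog and Ermn, which were chosen after their values were seen. Without SHR 2, Ugt8 (0.60) and Myrf (0.95) were below 2-fold.

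Genes of motile cilia were lower in the upper pools. Foxj1, the master transcription factor of motile cilia, read 10.02, 9.33 and 9.80 in SHR 2, WKY 2 and WKY 3, and 11.31, 11.35 and 10.73 in SHR 1, SHR 3 and WKY 1. Its mean difference was -1.24, with -1.31 and -1.17 in the strains, and the pools did not overlap. A family of 37 ciliary genes, taken by gene symbol after these values had been seen, had 17 past the rule lower and 0 higher, 34 ordered lower, and a median of -0.99. In 31 of the 37 each upper pool stood below each lower pool, against 1667 of all genes (14.2%). SHR 3 had the highest value in 32 of the 37, a count that was not made over all genes. Because the family was chosen for its values, these counts support nothing beyond the description.

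Drc12, a subunit of the nexin-dynein regulatory complex, read 10.86, 12.21 and 13.05 in the upper pools and 12.49, 13.31 and 14.03 in the lower, a mean difference of -1.72, with -1.81 at a second spot. Ak7, an adenylate kinase of the axoneme, was at 9.82, 9.18 and 9.76 against 11.02, 11.96 and 10.92 (-1.56), and Cfap141 (-1.41), Tmem212 (-1.40) and Spag6l (-1.21) were past the rule as well. Dnah1, an inner arm dynein heavy chain, was at -1.12 at its brightest spot and at 0.65 at a dimmer one.

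Choroid plexus genes differed in direction. Ttr, which encodes transthyretin, read 12.49, 9.18 and 10.47 in the upper pools and 11.51, 11.76 and 8.12 in the lower, a mean difference of 1.28 that held within the strains although the pools overlapped between them, and was 0.86 without WKY 1. Folr1, the folate receptor of that epithelium, was at -1.16, and at -0.82 without SHR 2. Otx2, a transcription factor of choroid plexus, was at 1.05, but its only spot had a mean of 6.58, below the median spot, and it was at 0.53 without WKY 1. Of the matrix genes, Postn (1.43) and Mmp9 (1.58, and 0.65 without SHR 2) were past the rule higher and Fmod (-1.28) lower. Of the fibroblast and meningeal genes, Dcn (1.09, and 0.74 without SHR 2) was past it higher and Thy1 (-1.35, with -0.38 at a dimmer spot) lower. Of 17 neuronal genes 1 was past it, the RNA-binding protein gene Elavl3 (1.21, and 0.79 without SHR 2). Of 16 sterol genes 2 were, Fdft1 and Ch25h, cholesterol 25-hydroxylase, whose 1.22 was 0.62 without WKY 1. The lists for immediate-early genes, acute phase and reactive glia, smooth muscle, unfolded protein response, hypoxia, oxidative stress, ribosomal proteins and the respiratory chain each had 0 past the rule in either direction.

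**Figure D5:**
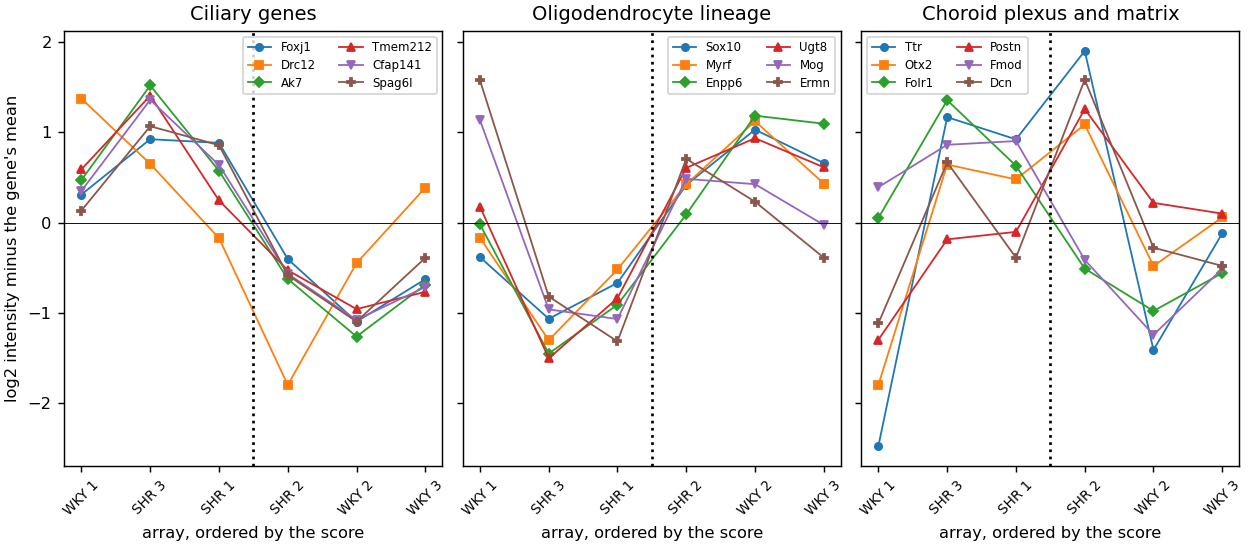
Log2 intensity minus the gene's mean over the 6 arrays for named ciliary, oligodendrocyte, choroid plexus and matrix genes, with arrays in score order and a dotted line between lower and upper pools. Foxj1, Ak7, Tmem212, Cfap141 and Spag6l lie below their means in all 3 upper pools, whereas Mog and Ermn are highest in WKY 1. Drc12, with a mean of 12.66, lies above it in the upper pool WKY 3 (13.05) and below it in the lower pool SHR 1 (12.49).

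Outside the interferon lists, the 15 genes with the largest mean difference in each direction were taken from 47 higher and 113 lower genes past the rule whose brightest spot was above the median spot. Plac8, a cysteine-rich myeloid protein, read 12.64, 12.13 and 14.22 in the upper pools and 11.58, 12.10 and 8.97 in the lower, a mean difference of 2.498 that was 0.79 without WKY 1. Clec7a, the beta-glucan receptor dectin-1 of myeloid cells, read 10.89, 11.31 and 12.57 against 9.35, 9.33 and 10.44, a mean difference of 1.53 that was nearly equal in SHR (1.55) and WKY (1.503). Pnlip, pancreatic lipase, was at 1.72 and Plxnb3, a plexin receptor for semaphorins, at 1.25.

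Single arrays decided the size of several others as well. RGD1309362 had a mean difference of 3.22 with WKY 1 at 5.12 and the other pools between 9.92 and 11.53, and it was at 0.95 without WKY 1. Fdft1, squalene synthase, was at 2.26 with WKY 1 at 7.77, at 0.23 without WKY 1, and at 0.35 at a second spot. Atf6b, a stress sensor of the endoplasmic reticulum, was at 1.71, at 0.33 without WKY 1, and at -0.06 and -0.11 at its other spots. Sdk2, an adhesion molecule of retinal synapses, was at 1.92, with -0.30 at its other spot.

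In the lower direction, Krt8, a keratin of simple epithelia, had the largest difference. It read 10.54, 10.18 and 10.61 in the upper pools and 12.56, 13.51 and 12.56 in the lower, a mean difference of -2.33 with no overlap between the sides. Dapl1 (-2.04), Aldh1a1, a retinaldehyde dehydrogenase (-1.67), Hcrt, the hypocretin precursor (-1.66), Ccdc33 (-1.64), Ces2c (-1.63), Cuzd1 (-1.59), Cyp2d4 (-1.54), Casq2, the cardiac calsequestrin (-1.53), and Wdr38 (-1.49) were also lower. Aurkb, the mitotic kinase of the chromosomal passenger complex, was at -1.55 and was the single gene of 25 cell cycle genes past the rule. The list did not share its direction: 9 of the 25 were ordered higher and 3 lower, with a median mean difference of 0.21. Dhrs7b had a mean difference of -1.95 that rested on SHR 2 at 7.36; without SHR 2 it was -0.29.

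The labelled comparison, SHR against WKY, was tested across 33249 spots with limma and Benjamini-Hochberg adjustment. At an adjusted p of 0.05, 0 spots (0%) passed, the smallest adjusted p being 0.0527, while 2545 had an unadjusted p under 0.05. With an intensity trend and robust prior in limma, 28 spots passed. Of the 71 interferon genes, the 4 choosing genes included, 0 had an unadjusted p under 0.05, and the smallest was 0.0698 for Irf5. For Mx1 the SHR mean was 13.47 and the WKY mean 14.03, a difference of -0.55 ± 0.76 (SE, n = 3 per strain, limma adjusted p = 0.864). For Ifit1 it was 1.75 ± 1.61 (SE, n = 3 per strain, limma adjusted p = 0.793). With the interferon score as a covariate, 0 spots passed, and 2880 had an unadjusted p under 0.05. For Mx1 the covariate changed the SE from 0.76 to 0.12, as its own values enter the score.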

How the data were processed

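CodeLink Expression Analysis software gave the authors' spot intensity after background subtraction, per the labels' design text, which also states quantile normalization and removal of measurements close to the negative controls. A genome build was not given in the sources used here, nor were versions. The deposited series table is linear intensity (median 494 in each array's column). Its 615 values per column at or below 0 were left out, except from the choosing score, a mean of intensities before log2, and log2 of the deposited values was used without an offset. A code of -9999 marks 178 to 238 spots per array in the per-sample tables, and its meaning is not stated. Each gene is given at its brightest complete spot. Of 33849 spots, 16753 have 1 gene symbol in the platform annotation, 165 several and 16931 none.

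The split is described without a test. The strains were compared in limma 3.58.1 under R 4.3.3 (moderated two-sided test, Benjamini-Hochberg over all spots, threshold 0.05), and the steps were tested on simulated data. Genes were named by a rule of role for the interferon and MHC lists, and by size or brightness for other lists and for the 15 leading genes per direction. Cxcl9, Cxcl11, Tnf, Il6, Spp1, Mog, Ermn, Tmem212, Spag6l, Dnah1 and most genes given for opposite directions in the strains lie outside that rule and were chosen after their values were seen, as was the limit of 0.5 there. The lists and members were chosen with earlier results of these data known. Gene matching by synonym was tightened once, the ciliary and Hox families (of 11 Hox genes 0 were past the rule) were taken by symbol after values were seen and the ciliary pattern was trimmed once, and the counts over all 3 upper and lower pools were added then. Of 725 list entries, 553 matched a measured gene. Promoters are from RefSeq, build GRCr8. Python 3.11.15, pandas 2.3.3, numpy 2.4.6 and matplotlib 3.10.9 were used.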

Additional observations from a re-analysis of the deposited data

Results flagged for a closer look

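Of 607 genes of the lists or among the leading genes, 102 (16.8%) were ordered in opposite directions in the strains, against 15.9% of all 11705 genes. The 16 with a difference of at least 0.5 on the log2 scale in each strain are given as SHR and then WKY difference between upper and lower pools. They were chosen by these values, and the difference between the strains was not tested.

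Higher within SHR and lower within WKY were the oligodendrocyte genes Ermn (1.77 and -1.65), Mobp (1.71 and -0.71), Mog (1.498 and -0.93) and Opalin (1.14 and -0.89). The same direction was seen for the chemokine Cxcl1 (1.23 and -0.74), complement factor D, Cfd (0.74 and -1.05), the vasoactive peptide Adm (0.59 and -0.79) and Ndrg1 (0.57 and -1.09).

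Lower within SHR and higher within WKY were the class II chains RT1-Db1 (-0.91 and 1.57), RT1-Bb (-0.75 and 0.61), RT1-Ba (-0.65 and 1.74) and RT1-Da (-0.51 and 1.53), and the class I gene RT1-CE15 (-0.90 and 1.84). So were the T cell coreceptor Cd8a (-0.52 and 0.97), the nucleotide kinase Cmpk2 (-0.50 and 0.78) and the ribosomal protein Rpl8 (-0.87 and 0.51).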

How the results depend on the processing

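The 3 upper pools were the same under all 6 other scores run, which except for the score of the interferon lists reuse the choosing spots. Those lists were written with earlier results of these data known. No named gene past the rule reversed its sign under the alternatives run. Where 1 array or some spots were left out, the rule itself fixed this outcome, because it asks for order within each strain. Interferon genes not past the rule could change sign, and some did, among them Ifitm1 (-0.42 to 0.83), Plscr1 (-0.52 to 1.29) and Irf1 (-0.23 to 0.32). Of the list medians, the interferon one alone was recomputed under them; without WKY 1 or SHR 2 a list's median is that within SHR or WKY, and the cell cycle median of 0.21 (-0.017 within SHR) and that of interferon ligands, receptors and kinases, 0.093 (-0.048 within WKY), are among those that change sign. The interferon list median of 0.48 ranged from 0.23 (without WKY 1) to 0.78 (without SHR 2) when 1 array was left out, and was 0.74 with the replicate number as a block. The count of spots past the 2-fold rule higher, 332, was 207 with an offset of 50 before log2, 182 without the dimmest 25% of spots, 585 with the replicate block, and 339 to 1093 with 1 array left out. The count lower, 418, was 262 with the offset, 753 with the block, and 400 to 1024 with 1 array left out. Leaving out the lone upper SHR or lone lower WKY pool removes 1 strain from the rule, which gave the highest counts. A difference of at least 4-fold, a setting added after the data were seen, left 22 spots higher and 2 lower. Of the 755 spots past the rule in either direction (the choosing spots included), 375 were also past it with the offset.

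The strain test called 0 spots in the main setting, 6 with the offset, 18 without the dimmest spots, 5 with spots valid on all 6 arrays, and 28 with an intensity trend and robust prior; the cause was not tested. It called 0 (2798 unadjusted) with the replicate block and 0 with any 1 array left out. Same-numbered pools of the strains correlated at 0.0011, 0.22 and -0.13 in their deviations from the strain means. The highest value, 0.27, was for SHR 3 with WKY 1, both lower pools. Pools numbered 1 share a side, as do those numbered 2, so these values cannot decide whether the numbers pair the pools. The labels name no pairing, and none was used in the main fit.

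Precision is set by there being 3 arrays per strain.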
